A study of Mus musculus with 6 samples.

Results

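The genes that carry glucose into the cells of the testis and turn it into lactate for the germ cells were followed in mouse testes at the age of 12 days. They were taken by name, as the gene rows LDHA, LDHB, LDHC, SLC16A1, SLC16A3, SLC2A1, SLC2A3, PKM2, HK1 and PGK2 of the normalized table. Of these 10 rows, 9 were in the table of 30774 gene rows, and 7 were detected on at least 1 array and tested among 13026 rows. Ldhb was not analysed here. The row PKM2 is Pkm in the mouse reference GRCm38.p6, and the other rows bear the reference symbol.

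Whole testes of 3 ScAtrxKO and 3 wild-type male C57BL/6 mice were compared, with 1 Illumina MouseWG-6 v2 BeadChip array per sample. In ScAtrxKO mice floxed Atrx, a gene for a chromatin remodeling protein, was deleted by AMH-Cre, which is active in Sertoli cells and is not aimed at other cells of the testis. The sources used here do not say whether wild-type mice carried the floxed allele or Cre, nor whether the testes of a genotype came from separate animals. The p-values therefore cover only the spread among these samples, which may be technical. The row of Atrx gave no check of the genotypes. Its background-subtracted intensity was 3.03 ± 0.551 in ScAtrxKO and 3.53 ± 1.81 in wild-type testes (SD, n = 3 each), with detection on 0 of 6 arrays.

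Sertoli cells, the somatic cells of the seminiferous tubule, are known to take up glucose, break it down to pyruvate and export most of it as lactate. Spermatocytes and spermatids depend on that lactate, while spermatogonia use more glucose themselves. Slc2a1 and Slc2a3 encode the glucose transporters GLUT1 and GLUT3. Hk1, Pgk2 and Pkm encode enzymes of glycolysis, and Ldha, Ldhb and Ldhc encode subunits of lactate dehydrogenase, which converts pyruvate and lactate into each other. Slc16a1 and Slc16a3 encode the lactate carriers MCT1 and MCT4. Ldhc and Pgk2 are made in germ cells from meiosis on.

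In ScAtrxKO testes Ldha, a lactate dehydrogenase subunit, rose by 0.55 on the normalized log2 scale, and Slc2a3, the transporter GLUT3, fell by 0.74. Ldhc, the germ cell subunit, had the largest difference of the 7 tested genes, at -0.83, but its spread between wild-type testes was wide and it missed the threshold. Slc2a1 was lower on every ScAtrxKO array than on every wild-type array on the normalized scale, but the difference did not pass. Pkm, Hk1 and Slc16a3 differed by 0.03 or less on the deposited scale, which compresses low intensities such as those of Hk1 and Slc16a3. In all, 1 of the 7 tested genes rose and 1 fell at an adjusted p under 0.05, against 13% of the 13026 tested rows in either direction (7.47% higher and 5.50% lower in ScAtrxKO). With 7 genes these counts are small, and nothing is read from their share. Of the genes that passed, Slc2a3 and not Ldha also reached a fold change of 1.5 on the deposited values, as 1.30% of the tested rows did.

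Ldha and Ldhc lie side by side on chromosome 7 on the same strand, with 1 annotated gene, the long noncoding RNA Gm39011, between them. Their promoter sequences are shown because the values of these neighbours differed between genotypes in opposite directions, although Ldhc missed the threshold. The sequences are from RefSeq on GRCm38.p6 and run 5′ to 3′ over 300 bases, 250 before and 50 after an annotated start. The Ldha window is chr7:46845554-46845853 (plus strand), the first of its 2 windows in the table, and the Ldhc window is chr7:46861013-46861312 (plus strand), also the first of 2. Capitals mark the letters ACGTG, the core of the element bound by hypoxia-inducible factors, and TGACGT, the core of the cAMP response element, each searched on both strands.
Ldha: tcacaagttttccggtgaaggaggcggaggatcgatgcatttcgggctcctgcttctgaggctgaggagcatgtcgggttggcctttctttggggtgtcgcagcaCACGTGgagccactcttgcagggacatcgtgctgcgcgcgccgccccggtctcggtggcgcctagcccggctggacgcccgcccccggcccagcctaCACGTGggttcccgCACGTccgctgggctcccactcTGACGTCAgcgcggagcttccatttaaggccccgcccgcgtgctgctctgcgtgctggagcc
Ldhc: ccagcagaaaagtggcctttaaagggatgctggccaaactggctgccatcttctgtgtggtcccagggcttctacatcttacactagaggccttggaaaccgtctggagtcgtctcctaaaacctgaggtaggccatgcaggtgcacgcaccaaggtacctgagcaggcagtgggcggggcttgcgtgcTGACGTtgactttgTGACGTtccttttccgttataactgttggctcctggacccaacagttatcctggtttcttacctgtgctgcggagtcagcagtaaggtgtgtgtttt

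The Ldha window held 3 stretches with ACGTG, which begin 145, 48 and 34 bases before the start, and the first 2 read CACGTG and so hold the letters on both strands. It also held 1 stretch with TGACGT on both strands, TGACGTCA, from 12 to 5 bases before the start. The Ldhc window held 2 stretches with TGACGT, which begin 61 and 47 bases before the start, and 0 with ACGTG. No marked stretch overlapped another. Of the 32851 promoter windows of that length, 19.6% held ACGTG and 7.51% held TGACGT. A match is a run of letters and not a site shown to be used. Promoter windows were found for 9 of the 10 genes, with none for Slc2a3.

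Slc2a3, the glucose transporter GLUT3, had normalized log2 values of 8.95, 9.15 and 8.79 on the 3 ScAtrxKO arrays, against 9.89, 9.59 and 9.63 on the 3 wild-type arrays. All ScAtrxKO values lay below all wild-type values, and the smallest gap between the genotypes was wider than the spread within either. Before normalization its intensity was 351.7, 586 and 391.7 in ScAtrxKO testes, against 910.6, 720.7 and 748.2 in wild-type testes. The log2 fold change was -0.74 (standard error 0.10, 95% interval -0.98 to -0.50, adjusted p = 0.00433 from limma), or a signed fold change of -1.67. It passed under all 17 alternative settings, at adjusted p-values of 4.0e-04 to 0.0360, and the change ran from -0.65 without wild-type replicate 1 to -1.06 under the other 3 normalizations. Only 0.107% of the tested rows had a log2 fold change as low or lower.

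Slc2a1, the transporter GLUT1 through which Sertoli cells take up glucose, had 9.66, 9.72 and 9.54 in ScAtrxKO testes, against 10.03, 9.82 and 9.78 in wild-type testes on the normalized log2 scale. The groups did not overlap, but ScAtrxKO replicate 2 and wild-type replicate 3 were 0.06 apart. The difference was -0.24 (standard error 0.08, 95% interval -0.41 to -0.06, adjusted p = 0.0765 from limma), and it did not pass under any of the 17 alternatives, with adjusted p-values of 0.0568 to 0.199. Intensities before normalization overlapped, with 717.3, 1012.2 and 845.5 in ScAtrxKO testes, against 1020.3, 884.3 and 847 in wild-type testes. The genotypes did not overlap on the normalized scale for 4 of the 7 tested genes, Slc2a3, Slc2a1, Ldha and Ldhc, as was the case for 33.8% of all tested rows.

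The 2 transporters were also compared with each other as a difference within each array, because both could have moved by one amount. Slc2a3 minus Slc2a1 was -0.71, -0.57 and -0.75 in ScAtrxKO testes, against -0.14, -0.23 and -0.16 in wild-type testes. Slc2a3 thus changed by 0.50 more than Slc2a1 towards lower values (-0.50, two-sided exact permutation p = 0.1 over the 6 arrays, adjusted p = 0.133 over 4 pairs). With 3 arrays against 3, 0.1 is the smallest p this test can give, so it cannot pass the threshold. The difference was -0.47 or lower when any single array was left out.

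Of the enzymes on the way to pyruvate, Pkm and Hk1 overlapped between the genotypes. Pkm, the pyruvate kinase of the last step, had 11.34, 11.29 and 11.31 in ScAtrxKO testes, against 11.23, 11.36 and 11.33 in wild-type testes. The ScAtrxKO values lay inside the wild-type range, and the difference was 0.01 (standard error 0.05, 95% interval -0.10 to 0.12, adjusted p = 0.950 from limma). Hk1, the hexokinase that phosphorylates glucose on entry, had 8.12, 8.0 and 8.10 in ScAtrxKO testes, against 8.03, 8.05 and 8.19 in wild-type testes, a difference of -0.02 (95% interval -0.15 to 0.11, adjusted p = 0.860). The deposited scale compresses low intensities such as those of Hk1, so its interval there is no bound on the fold change. Its intensities were 87.6, 86.1 and 116.3 in ScAtrxKO testes, against 72.7, 79.7 and 114.4 in wild-type testes, and with log2 quantile normalization its difference was -0.08 with a standard error of 0.22. Pgk2, the phosphoglycerate kinase of meiotic germ cells, was not detected on any array, with intensities of -5.7 to 8.3 in ScAtrxKO and -4.8 to 11.7 in wild-type testes, and was not tested.

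Ldha had normalized log2 values of 10.89, 10.94 and 11.14 in ScAtrxKO testes, against 10.33, 10.47 and 10.53 in wild-type testes. Every ScAtrxKO value was higher than every wild-type value. The intensities before normalization were 1919.7, 2634.5 and 2947.5 in ScAtrxKO testes, against 1311.1, 1483.3 and 1567.6 in wild-type testes. The rise was 0.55 (standard error 0.08, 95% interval 0.37 to 0.73, adjusted p = 0.00445 from limma), a fold change of 1.46 and so below the limit of 1.5. It passed under all 17 alternatives, with changes of 0.47 to 0.68 and adjusted p-values of 0.00121 to 0.0422. Of the tested rows, 98.7% had a log2 fold change as low as that of Ldha or lower.

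Ldhc had 8.42, 8.33 and 7.98 in ScAtrxKO testes, against 9.50, 9.21 and 8.52 in wild-type testes. Wild-type replicate 3 stood 0.10 above the highest ScAtrxKO array and 0.69 below the next wild-type array, so the genotypes were separate but close at that point. Intensities were 169.3, 198.3 and 77.9 in ScAtrxKO testes, against 647.1, 496.4 and 213 in wild-type testes, and the genotypes did not overlap. The difference was -0.83 (standard error 0.23, 95% interval -1.36 to -0.31, adjusted p = 0.0503 from limma), a signed fold change of -1.78. The SD was 0.234 in ScAtrxKO and 0.501 in wild-type testes, the widest of the genes described here. Without wild-type replicate 3 the difference was -1.11 (adjusted p = 0.00608), whereas without wild-type replicate 1 it was -0.62 (adjusted p = 0.111). The variance-stabilized scale compresses low intensities, and with log2 quantile normalization the difference was -1.78, again without passing (adjusted p = 0.133).

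Within each array, Ldhc minus Ldha was -2.46, -2.61 and -3.16 in ScAtrxKO testes, against -0.84, -1.26 and -2.01 in wild-type testes. The ScAtrxKO differences were all lower than the wild-type ones, and the shift was -1.38 (two-sided exact permutation p = 0.1, the smallest possible, adjusted p = 0.133 over 4 pairs). The other 2 of these pairs each hold a gene that was not detected on any array, and a further pair needs Ldhb, so no value is given for them. Genes near Ldha and Ldhc, which were chosen after their values were seen, did not pass the test. Gtf2h1, upstream of Ldha but not the annotated entry next to it, differed by -0.19 (standard error 0.07, adjusted p = 0.113 from limma). Tsg101 and Uevld, downstream of Ldhc, differed by 0.04 (adjusted p = 0.835) and -0.01 (adjusted p = 0.883).

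The lactate carriers gave little signal. Slc16a1, which encodes MCT1, had intensities of -4.9, 10 and 2.7 in ScAtrxKO testes, against -4.6, 14 and 1.9 in wild-type testes, and was detected on no array. Slc16a3, which encodes MCT4, had 19.5, 12.9 and 23.8 in ScAtrxKO testes, against 11.1, 29.9 and 27.2 in wild-type testes, and was detected only on the array of wild-type replicate 2. Its normalized difference was -0.03 (95% interval -0.13 to 0.08, adjusted p = 0.761 from limma), but a gene this close to background has only a bound in ScAtrxKO testes. With log2 quantile normalization the difference of Slc16a3 was -0.32 with a standard error of 0.47. Changes of these carriers were not detectable with these arrays.

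**Figure D1:**
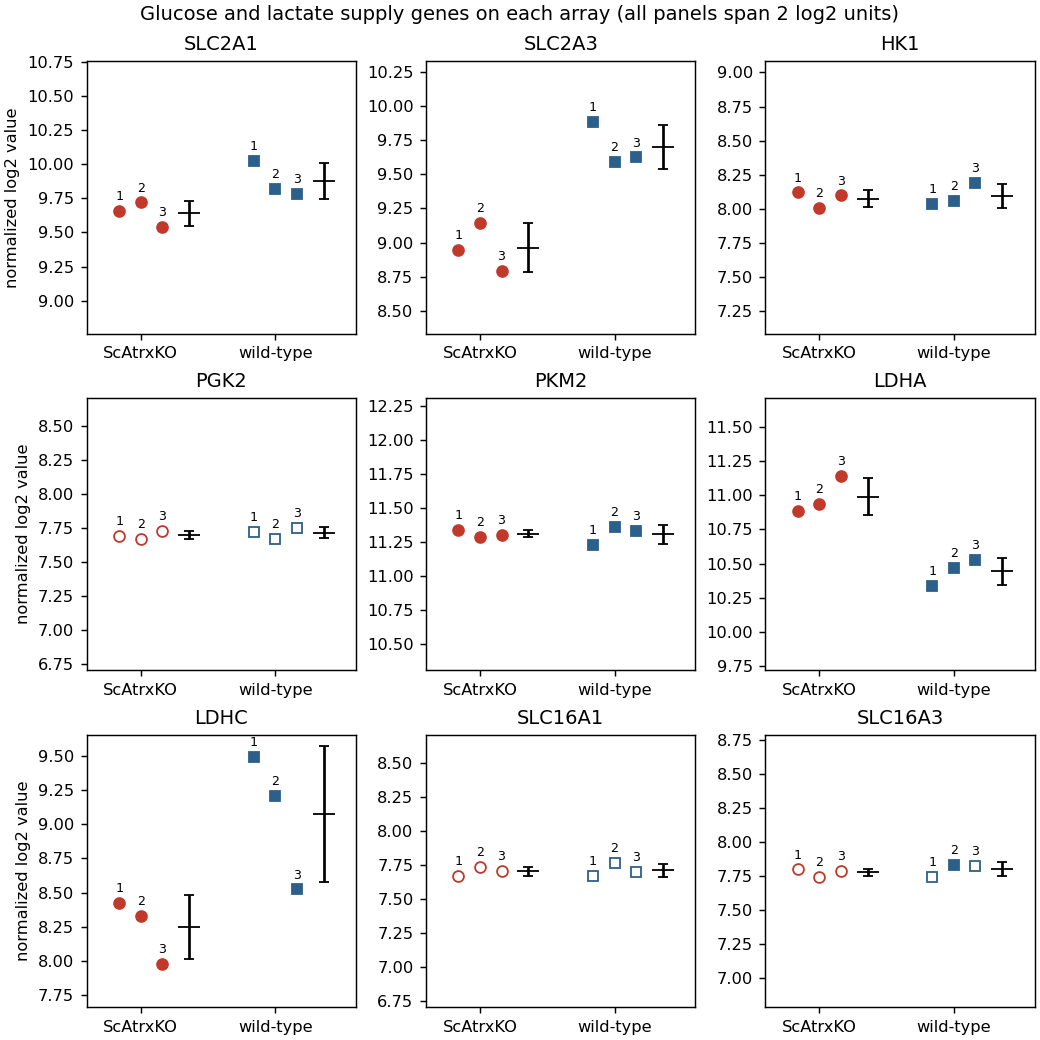
Normalized log2 value (y axis, 2 log2 units in every panel) of the 9 genes on each ScAtrxKO (red circles) and wild-type (blue squares) array, with the replicate number above each point. Open symbols were not detected at a detection p under 0.01, and bars give the mean ± SD (n = 3). Slc2a3 and Ldhc lie lower and Ldha higher in ScAtrxKO testes, and wild-type replicate 3 of Ldhc sits near the ScAtrxKO arrays at 8.52.

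The whole testis holds germ cells, Sertoli cells and interstitial cells, and in such samples fewer cells of a type and less RNA per cell cannot be told apart. Marker levels were therefore set beside these genes. Of 8 tested spermatocyte markers, 4 fell, 0 rose and 4 did not pass, and the summed intensity of the 14 markers after median scaling was 10260 to 11770 in ScAtrxKO and 12000 to 14560 in wild-type testes. Relative to the wild-type mean, the median of the detected spermatocyte markers was -0.31, -0.30 and -0.46 on the ScAtrxKO arrays, against 0.13, 0.02 and -0.15 on the wild-type arrays. Ldhc was lowest on ScAtrxKO replicate 3 and, among the wild-type arrays, on replicate 3, and so were these markers. Their part in the difference of Ldhc was not tested. Sycp3, Spo11, Hormad1, Dmc1, Tex15 and Mael, markers of spermatocytes, were not detected on any array.

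Of 11 tested spermatogonial markers, 4 fell, 0 rose and 7 did not pass. Their median was -0.21 on each of the ScAtrxKO arrays, against 0.01, -0.03 and 0.01 on the wild-type arrays. The summed intensity of all 12 spermatogonial markers was 11490 to 12290 in ScAtrxKO and 14780 to 16330 in wild-type testes. Ddx4, a marker of all germ cells, was not detected on any array. The 4 markers of each germ cell list that fell stand beside Slc2a3 and Ldhc, while the other 11 of the 19 tested did not pass. Their part in the fall of Slc2a3 was not tested.

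Macrophage markers were higher beside Ldha: of 11 tested, 11 rose, and Cd163 was not detected on any array. The summed intensity of all 12 macrophage markers was 6176 to 7069 in ScAtrxKO and 2261 to 3434 in wild-type testes. Of 7 tested Leydig cell markers 3 rose, of 8 endothelial markers 5 rose, of 6 erythroid markers 1 rose, of 3 peritubular myoid markers 1 rose, and 0 fell in these 4 lists. Markers that no array detected included Cyp11b1 of the Leydig cell list, Kdr and Flt1 of the endothelial list, and Myh11, Cnn1 and Tagln of the peritubular myoid list. For the Leydig cell markers, detected or not, summed intensities were 5274 to 9282 in ScAtrxKO and 3188 to 4445 in wild-type testes. The endothelial sums were 2228 to 2380 in ScAtrxKO and 1468 to 1535 in wild-type testes. The erythroid sums were 9798 to 13440 in ScAtrxKO and 8042 to 9498 in wild-type testes. Those of the peritubular myoid markers overlapped, at 11630 to 12650 in ScAtrxKO and 11830 to 13350 in wild-type testes. On the ScAtrxKO arrays the median of the macrophage markers was 0.29, 0.44 and 0.53 above the wild-type mean (-0.12 to 0.08 on the wild-type arrays), and that of the Leydig cell markers was 0.14, 0.19 and 0.48 above it (-0.04 to 0.03 on the wild-type arrays). Ldha was highest on ScAtrxKO replicate 3, as were these 2 medians, but the summed macrophage intensity was highest on ScAtrxKO replicate 2. Among the wild-type arrays the macrophage median (0.08) and sum (3434) were highest on replicate 1, where Ldha was lowest. The summed Leydig cell intensity increased from replicate 1 to 3 in both genotypes, as Ldha did. It was 5274, 6891 and 9282 in ScAtrxKO testes, against 3188, 3700 and 4445 in wild-type testes. The Leydig cell median was lowest among the wild-type arrays on replicate 2 (-0.04), where Ldha was not. The part of these markers in the rise of Ldha was not tested. The 13 Sertoli cell markers with a gene row had summed intensities of 69760 to 75140 in ScAtrxKO and 73050 to 77930 in wild-type testes. Of 11 tested 2 rose, 0 fell and 9 did not pass, while Kitl and Gdnf were not detected. The follicle-stimulating hormone receptor gene Fshr, found in Sertoli cells, differed by -0.02 (95% interval -0.16 to 0.12).

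**Figure D2:**
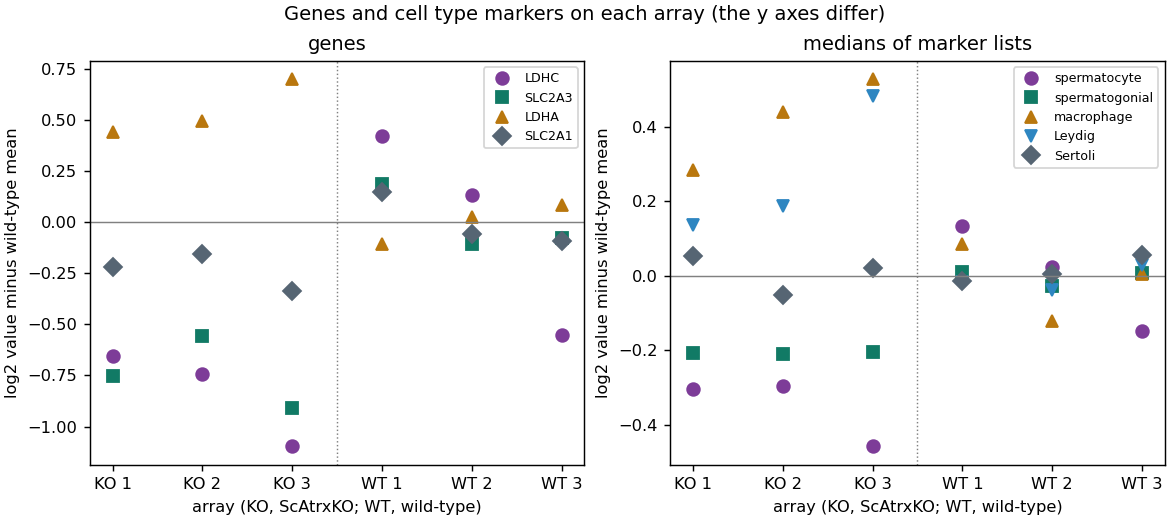
Left, Ldhc, Slc2a3, Ldha and Slc2a1 on each array as the normalized log2 value minus the wild-type mean, and right, the median of each list of detected cell type markers on the same scale with another y range (KO, ScAtrxKO; WT, wild-type). Ldhc and the spermatocyte markers are lowest on ScAtrxKO replicate 3, where the marker median is -0.46, and the macrophage markers are above 0.28 on all 3 ScAtrxKO arrays.

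The tested genes whose values followed those of Ldhc most closely over the 6 arrays were Creld2, Piwil1, 4932438A13RIK, HIST1H4M and AI842396, with Pearson correlations of 0.994 to 0.998. These were the 5 highest of all tested rows over arrays of both genotypes, and they describe these 6 arrays only. Piwil1, which encodes a PIWI protein of meiotic and later germ cells, had 8.41, 8.33 and 8.09 in ScAtrxKO testes, against 9.33, 9.10 and 8.61 in wild-type testes. It fell, with a log2 fold change of -0.74 (adjusted p = 0.0272 from limma, standard error 0.17). Since it was picked for its likeness to Ldhc over both genotypes, its order of arrays and its direction follow from that choice and are not a separate observation. AI842396 changed by -0.29 (adjusted p = 0.0473), and the other 3 did not pass, at adjusted p-values of 0.0869 to 0.0925.

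The rest of glycolysis was followed in 19 further enzymes, of which 18 were in the table and 11 were tested. Of these 1 rose, 1 fell and 9 did not pass, with a median log2 fold change of 0.09, against -0.01 over all tested rows. Tpi1, which encodes triosephosphate isomerase, had 10.46, 10.45 and 10.43 in ScAtrxKO testes, against 10.12, 9.92 and 10.11 in wild-type testes, a rise of 0.40 (standard error 0.06, adjusted p = 0.00534). Eno3, the enolase known from muscle, had 8.48, 8.49 and 8.36 in ScAtrxKO testes, against 8.60, 8.77 and 8.74 in wild-type testes, so it fell by 0.26 (adjusted p = 0.0282, standard error 0.06). Neither reached 1.5-fold, and Eno3 missed the threshold under each of the other 3 normalizations (adjusted p-values of 0.0622 to 0.0822), as did Tpi1 with log2 quantile normalization (0.0515) and median scaling (0.0597). Gapdh, the glyceraldehyde-3-phosphate dehydrogenase, had 12.44, 12.48 and 12.47 in ScAtrxKO testes, against 12.33, 12.40 and 12.40 in wild-type testes, a difference of 0.09 that did not pass (adjusted p = 0.219). It was chosen for mention with that value known.

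Pgk1, the other phosphoglycerate kinase gene beside Pgk2, was left out by the detection filter although its row was bright. Its intensity was 414.6, 571.8 and 562.2 in ScAtrxKO testes, against 400, 372 and 382.9 in wild-type testes, and its lowest detection p was 0.0118. Hk1, with lower intensities, was detected, so the detection p did not follow the intensity of the gene row, and for bright rows such as Pgk1, Emb, Hif1a, Dld and Aldoc "not detected" states only that this p was not under 0.01. When all rows were tested, its difference was 0.13 (adjusted p = 0.0541). Of the testis forms of glycolytic enzymes, 4 of 5 were in the table. Only the enolase gene Eno4, listed under an older RIKEN name, was detected, with a difference of -0.06 (adjusted p = 0.340).

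Among 18 other glucose and monocarboxylate transporters and chaperones of lactate carriers, 9 were tested, of which 2 rose, 0 fell and 7 did not pass. Slc2a13, a transporter of myo-inositol, had 8.14, 8.08 and 8.14 in ScAtrxKO testes, against 7.83, 7.84 and 7.87 in wild-type testes, and passed the test (adjusted p = 0.00544). It was detected on no ScAtrxKO array and only on wild-type replicate 2, although its intensity was 91.7 to 130.1 in ScAtrxKO and 28.7 to 36 in wild-type testes, so no fold is given. The size of its difference depended on the normalization, at 0.27 as deposited, 0.13 with neqc and 1.58 with log2 quantile normalization. Slc16a9, a carrier of the MCT family, was detected on 2 ScAtrxKO and 0 wild-type arrays. It rose by 0.17 on the deposited scale (adjusted p = 0.0307 from limma). That scale compresses low intensities, so no fold is given for Slc16a9 either. With neqc its difference was 0.08 and did not pass (adjusted p = 0.0627), and with log2 quantile normalization it was 1.11 (adjusted p = 0.0328).

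Emb encodes embigin, a membrane chaperone of lactate carriers. It too was never detected, with a lowest detection p of 0.0184, although its intensity was 246.8, 359.9 and 519.1 in ScAtrxKO testes, against 73.9, 104.5 and 93.6 in wild-type testes. When all rows were tested without the detection filter, Emb was higher by 0.71 (standard error 0.09, adjusted p = 0.00750), which makes it, among the 74 rows of these lists and the genes described first, 1 of 30 not detected on any array and the only one of the 5 with a mean intensity above 50 to pass in that test. It was chosen after its values were seen. Bsg, the gene of the other chaperone basigin, had a difference of 0.05 (adjusted p = 0.501) and was detected on 1 array.

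Of 15 genes of pyruvate entry into mitochondria, 10 were tested, and 0 rose, 1 fell and 9 did not pass. The gene that fell was Pdp2, a pyruvate dehydrogenase phosphatase gene listed under an older RIKEN name, with 8.74, 8.77 and 8.73 in ScAtrxKO testes, against 9.07, 9.06 and 8.99 in wild-type testes. Its change was -0.29 (standard error 0.04, adjusted p = 0.00474), and it passed under the other 3 normalizations too. Of 12 regulators of glycolysis and glucose uptake, 6 were tested and none passed, with 1 of them, Igf1r, the receptor of insulin-like growth factor, at an unadjusted p under 0.05. Igf1r had a difference of 0.17 (adjusted p = 0.105) and Pfkfb2, an enzyme that sets the level of a glycolytic activator, of -0.08 (adjusted p = 0.217). Hif1a was not detected on any array by its detection p, with intensities of 115.5, 121.9 and 136.8 in ScAtrxKO testes, against 112.1, 134.1 and 107.7 in wild-type testes.

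**Figure D3:**
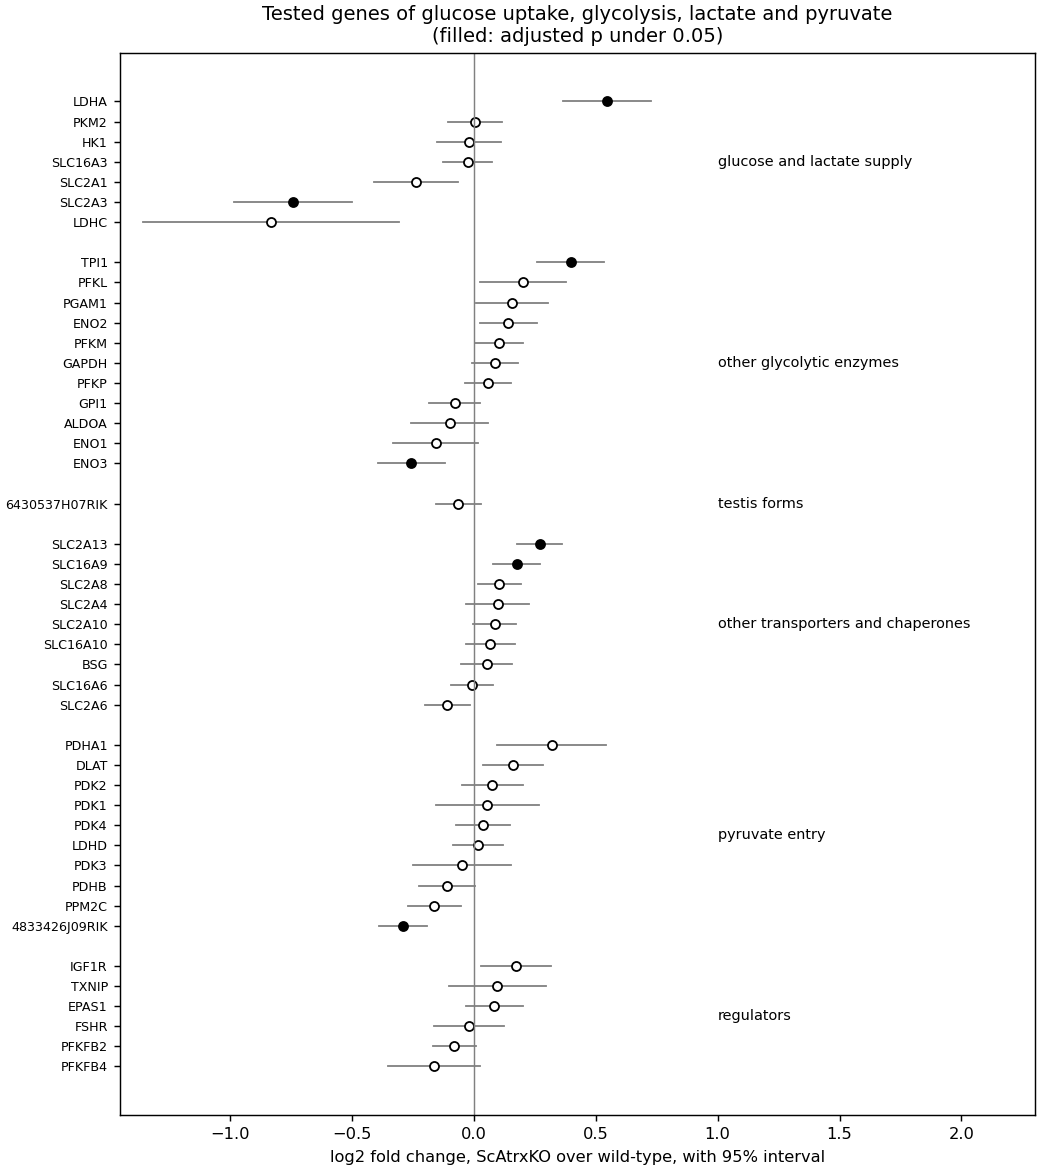
Log2 fold change of ScAtrxKO over wild-type (x axis, with 95% intervals) for the 7 tested glucose and lactate supply genes and the tested genes of the 5 further lists. Filled points passed an adjusted p of 0.05. Slc2a3 at -0.74 and Ldha at 0.55 are the passing genes farthest from 0.

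**Figure D4:**
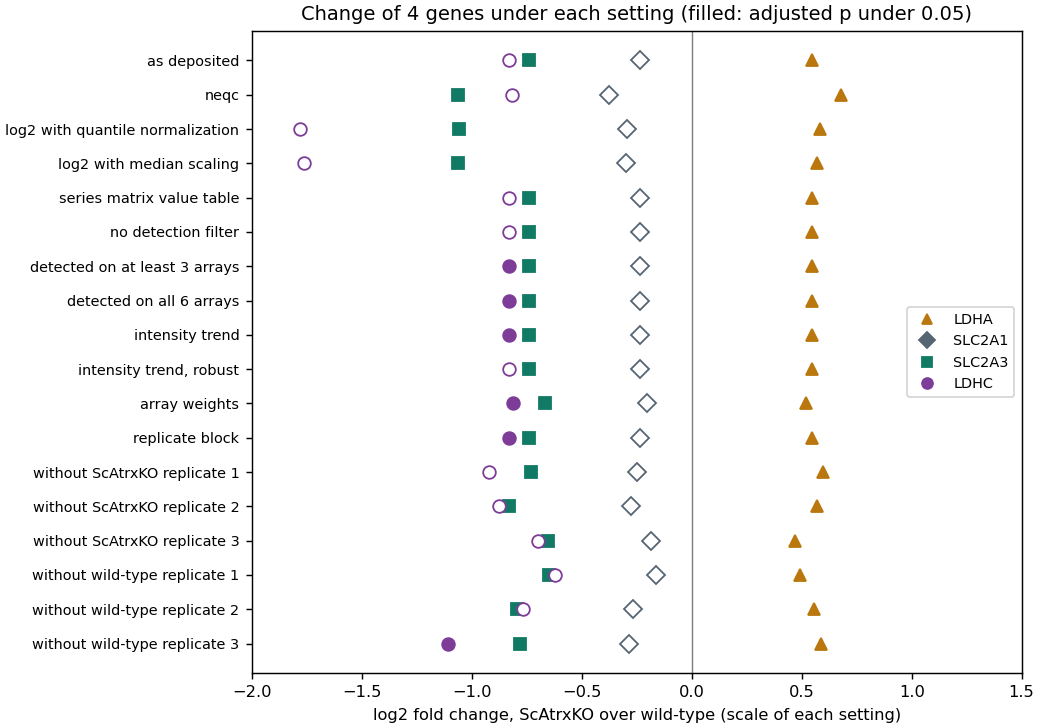
Log2 fold change of ScAtrxKO over wild-type for Ldha, Slc2a1, Slc2a3 and Ldhc as deposited and under 17 alternative settings (rows), filled where the adjusted p was under 0.05. Ldha and Slc2a3 are filled in every row, Slc2a1 in none, and Ldhc in 6 of the 17 alternatives.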

How the data were processed

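RNA from 3 ScAtrxKO and 3 wild-type testes was hybridized to 1 array per sample. The authors used GenomeStudio to subtract background and average probes to gene rows, and deposited a linear intensity for each row and array, with a detection p-value beside it. They then stabilized the variance and quantile normalized in lumi, and these values were deposited on a log2 scale. Columns named WT and M with a number were read as the wild-type and ScAtrxKO samples of that number. The authors' deposited fold changes, p-values and GO enrichments were not used.

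From the normalized log2 values, genotype was fitted across all rows with a detection p under 0.01 on at least 1 array, with limma 3.58.1 (lmFit, eBayes) in R 4.3.3, the model the paper's methods name, and p-values were adjusted by Benjamini-Hochberg over the 13026 rows. A gene passed at an adjusted p under 0.05. The fit was checked on simulated data. Arrays had 10493 to 10917 detected rows and mean intensities of 349.8 to 469 in ScAtrxKO testes, and 10624 to 10803 rows and 368 to 381 in wild-type testes. The number of arrays limits the precision.

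The genes and lists were chosen with earlier results of these data known. The genes named are the 10 members, from each pathway list up to 4 that passed or else the 2 of smallest p, Pgk1, and the 5 rows most correlated with the member of largest change; exceptions are stated. The 17 alternatives were neqc (offset 16), log2 quantile and log2 median scaling (both floored at 1), the series value table, which lacks 7 of the rows, no detection filter, detection on at least 3 or on all 6 arrays, a variance trend on intensity, plain or robust, array weights, a replicate block, and leaving out each array.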

Additional observations from a re-analysis of the deposited data

How the results depend on the processing

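Ldha and Slc2a3 kept their direction and passed under all 17 alternatives. Ldhc kept its direction under all of them and passed with detection on at least 3 arrays (-0.83, adjusted p = 0.0439), detection on all 6 (-0.83, 0.0379), an intensity trend (-0.83, 0.0162), array weights (-0.81, 0.0305), the replicate block (-0.83, 0.00472) and without wild-type replicate 3, its range without single arrays being -1.11 to -0.62. The number of the 7 genes that fell was then 2 in place of 1 (1 to 2 without single arrays). Pkm differed by -0.0065 with array weights and by -0.033 to 0.034 without single arrays, and Hk1 by -0.050 to 0.029. Ldhc minus Ldha shifted by -2.36 under log2 quantile normalization and -2.33 under median scaling. Slc2a3 minus Slc2a1 shifted by -0.68 (neqc), -0.77 (log2 quantile normalization) and -0.76 (median scaling). The cause was not tested.

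Over all tested rows, 973 rose and 717 fell as deposited. The counts were 687 and 425 under neqc, 547 and 227 under log2 quantile normalization, and 546 and 228 under median scaling. Rows that rose thus made up 57.6% as deposited and 61.8%, 70.7% and 70.5% under these normalizations. Without single arrays 548 to 840 rose and 275 to 651 fell, both fewest without wild-type replicate 2. Rows that rose were fewer by over 1.5 times without that array and without ScAtrxKO replicate 2 (579), and rows that fell without any array but wild-type replicate 3. The deviations of same-numbered samples correlated at 0.00294, 0.0467 and 0.0803, none over 0.1, so the numbers were not taken as pairs. ScAtrxKO replicates 2 and 3 correlated best with the wild-type array of their own number, and ScAtrxKO replicate 1 with wild-type replicate 2 (0.0378). The replicate block called 1557 rows in place of 1690, of which 1344 were shared.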
